A study of Mus musculus with 20 samples.

Results

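The 34 genes described here encode cadherins and non-clustered protocadherins of the mouse, together with larger relatives of the Fat, Dachsous and Celsr families and the calsyntenins. They are not all genes of the superfamily. The rule is by gene symbol and uses no measured value, although the family was proposed with earlier results of these data known. All 34 were among the 37607 genes of the bulk table. A filter on low counts was passed by 32 of them, among 13916 genes tested, and Pcdh18 and Celsr1 did not pass it. A gene can pass through the population where it is high, so counts over the 32 tested genes are not counts over all 34.

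Cadherins are membrane proteins that hold neighbouring cells together through calcium-dependent binding of their extracellular repeats, often between like molecules. In classical cadherins the intracellular tail binds beta-catenin and, through alpha-catenin, the actin skeleton. Protocadherins lack that tail and adhere more weakly, and neurons of different projection classes are known to carry different sets of both.

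Gene expression was measured in pyramidal cells of the subiculum, through which most output of the hippocampus leaves, grouped by the target of their axons. Fluorescent neurons were picked by hand from dissected slices, and 3 biological replicates were sequenced for each of 4 populations labelled NA, PFC, RSC and VHN. By custom NA stands for nucleus accumbens, PFC for prefrontal and RSC for retrosplenial cortex. VHN is printed as the labels have it. Single cells of the same type filled 4 plates of 96 wells and carry no target label in the table. The labels give no treatment, and the strain, sex and age of the mice and the tracer or allele behind the fluorescence are not given in the sources used here.

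Bulk libraries held 10777271 to 20904122 gene fragments. Levels are CPM, counts as a share of the library's total and scaled between libraries, and levels of different genes are compared only in FPKM, fragments scaled for library depth and for gene length. The labelled cell type was checked with marker lists. Summed pyramidal markers reached 3466 to 5155 CPM in NA, 3530 to 4262 in PFC, 2716 to 3224 in RSC and 2824 to 3344 in VHN. These sums did not overlap between the sides, and 5 of the 8 markers passed the comparison of the sides described below. Slc17a6 ran the other way, at 37.9 to 174 CPM in NA and PFC and 290 to 537 in RSC and VHN. Interneuron markers summed to 0.156 to 11.9 CPM in NA and 0.520 to 2.08 in PFC, against 5.25 to 237 in RSC and 1.26 to 179 in VHN, mainly through RSC replicates 2 and 3 and VHN replicate 3. Gad2, which makes the transmitter GABA in interneurons, was at 43.3, 177 and 91.9 CPM in those 3 libraries. The 5 endothelial and mural markers summed to 24.0 to 91.8 CPM in NA and PFC and 2.02 to 21.5 in RSC and VHN, and Rgs5 carried most of it in every library but VHN replicate 1, while Cldn5 had no fragment in any library. The 5 CA1 markers summed to 520.5 to 542 CPM in NA, 638, 1790 and 1472 in PFC, and 187 to 309 in RSC and VHN. Zbtb20 was at 551 and 609 CPM in PFC replicates 2 and 3 and at 49.0 in PFC replicate 1. Wfs1, Pou3f1 and Fibcd1 overlapped between the sides, and Zbtb20 and Man1a did not. The part of these markers in the results was not tested. In bulk samples, fewer cells of a type and less RNA per cell cannot be told apart.

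The first comparison asked how the cells projecting to NA and PFC differ from those projecting to RSC and VHN, each side with 6 libraries. Of the 32 tested genes, 12 passed as higher in NA and PFC, 6 passed as lower and 14 did not pass (edgeR quasi-likelihood test, adjusted p threshold 0.05 over all genes tested). Across all genes tested, 7.58% were higher and 6.66% lower, or 14.2% in all. The median size of the log2 difference was 1.34 over the 32 genes, against 0.59 over all genes tested, and the median with its sign was 0.56 against 0.01. Both type I cadherins and T-cadherin were higher in NA and PFC, while the type II cadherins split, with 2 higher, 5 lower and 4 not called of 11. Protocadherins that passed were all higher, 4 of 9 tested, and none of the 3 calsyntenins passed.

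**Figure D1:**
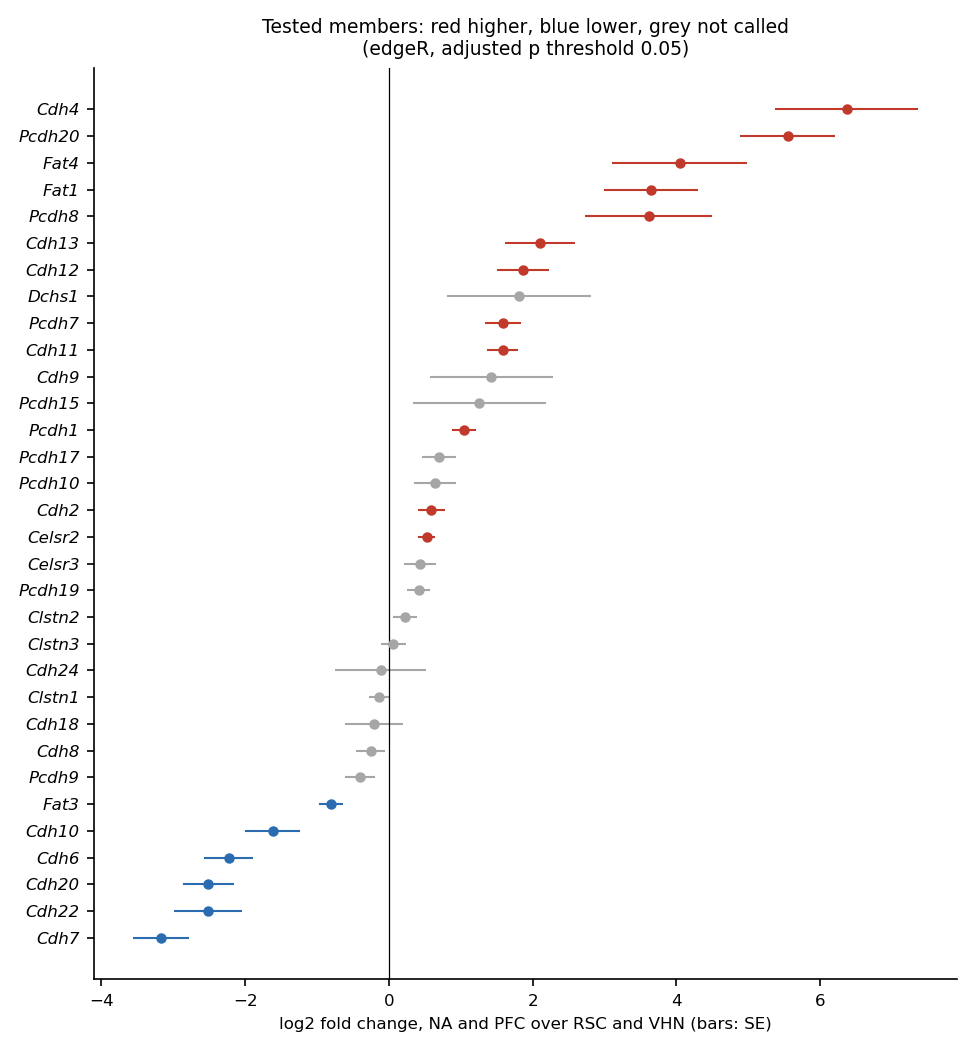
Log2 fold change of each tested cadherin superfamily gene between NA and PFC and RSC and VHN libraries (x axis), with bars for the standard error. Red marks the 12 genes called higher in NA and PFC, blue the 6 called lower and grey the 14 not called by edgeR; Cdh4 lies farthest to the right at 6.37 and Cdh7 farthest to the left at −3.17.

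The type I cadherins are the classical neuronal forms, and both were higher in NA and PFC, by very different amounts. Cdh2 (ENSMUSG00000024304), N-cadherin, links the membranes on both sides of the synapse. Its levels were 105, 94.7 and 116 CPM in NA, 127, 183 and 116 in PFC, 71.2, 77.3 and 65.1 in RSC and 70.8, 104 and 103 in VHN. PFC replicate 2 was the highest library and the sides overlapped, since VHN replicates 2 and 3 lay above NA replicate 2. Cdh2 was 1.51 times as high on average in NA and PFC (log2 fold change 0.59 with SE 0.187, edgeR adjusted p = 0.0434). The call held under 5 of 21 alternatives, with an adjusted p of up to 0.276, and between PFC and RSC alone Cdh2 was also called (adjusted p = 0.0248).

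Cdh4 (ENSMUSG00000000305), R-cadherin, was first described in the retina and can bind both itself and N-cadherin. It stood at 65.2, 51.6 and 30.04 CPM in NA, 12.5, 47.2 and 14.7 in PFC, 0, 0 and 0.0483 in RSC and 0.0525, 3.99 and 16.98 in VHN. It was all but missing from RSC, where 2 libraries had no fragment and the other had 1. NA was high in all 3 replicates, PFC replicate 2 matched NA while the others were lower, and VHN was near 0 in replicate 1 while its replicate 3 lay above 2 PFC libraries. The ratio to RSC over summed fragments was 2652 (95% counting interval 475 to 104786) for NA, 1505 (95% counting interval 269 to 59501) for PFC and 381 (95% counting interval 67.9 to 15072) for VHN, intervals that cover counting error only. With edgeR, Cdh4 was higher in NA and PFC together (adjusted p = 0.000386), in NA than in RSC (adjusted p = 0.000986) and in PFC than in RSC (adjusted p = 0.00113). The fitted fold changes depend on the prior count where RSC holds 1 fragment and are not bounds.

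Of the type II cadherins, which bind more selectively than type I and mark subsets of neurons, Cdh6, Cdh7, Cdh10, Cdh20 and Cdh22 were lower in NA and PFC, and Cdh11 and Cdh12 were higher. Cdh6 (ENSMUSG00000039385), known for its part in matching retinal axons to their targets, was at 37.4, 14.4 and 33.2 CPM in NA, 3.73, 9.98 and 11.6 in PFC, 81.2, 106 and 56.1 in RSC and 71.02, 65.4 and 58.1 in VHN. Every RSC and VHN library lay above every NA and PFC library, and within the low side PFC lay below NA. Its mean was 73.02 ± 18.7 CPM in RSC and VHN and 18.4 ± 13.6 in NA and PFC (SD, n = 6 libraries each), 3.97-fold apart (log2 fold change −2.23 with SE 0.341, edgeR adjusted p = 0.000335). Against PFC alone the test was passed by both RSC (adjusted p = 0.000595) and VHN (adjusted p = 0.00223, edgeR).

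Cdh7 (ENSMUSG00000026312), a cadherin of the developing nervous system, was at 10.4, 10.8 and 9.595 CPM in NA, 9.100, 12.4 and 2.34 in PFC, 139, 62.8 and 104 in RSC and 92.8, 45.9 and 56.1 in VHN. Its NA libraries were close together at about the level of 2 PFC libraries, PFC replicate 3 was lower, and all RSC and VHN libraries stood well above them. The means differed 9.16-fold. Cdh7 was called in all 4 comparisons across the sides, with adjusted p between 0.000494 for PFC against RSC and 0.0119 for NA against VHN (edgeR). Cdh20 (ENSMUSG00000050840), whose gene lies on the same chromosome as Cdh7, was at 39.1, 17.1 and 35.3 CPM in NA, 21.9, 14.5 and 3.94 in PFC, 84.5, 127 and 126 in RSC and 150.3, 85.3 and 122 in VHN. Its sides did not overlap, VHN replicate 1 was highest and PFC replicate 3 lowest. The means of Cdh20 were 5.27-fold apart (log2 fold change −2.51 with SE 0.356, edgeR adjusted p = 0.000177), and it too was called in all 4 comparisons across the sides.

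Cdh22 (ENSMUSG00000053166), found in brain and pituitary, was at 10.2, 2.36 and 21.4 CPM in NA, 4.07, 5.34 and 4.03 in PFC, 34.9, 33.8 and 50.4 in RSC and 60.2, 44.8 and 21.9 in VHN. Only VHN replicate 3 and NA replicate 3 came close to each other, at 21.9 and 21.4 CPM, and the sides did not overlap. The means were 5.19-fold apart (log2 fold change −2.52 with SE 0.475, edgeR adjusted p = 0.00175). Cdh10 (ENSMUSG00000022321) was at 8.698, 61.5 and 27.4 CPM in NA, 15.4, 29.9 and 27.2 in PFC, 95.6, 76.9 and 94.9 in RSC and 102, 99.3 and 45.6 in VHN. Its sides overlapped, since NA replicate 2 lay above VHN replicate 3, and the mean in RSC and VHN was 3.03-fold that of NA and PFC (log2 fold change −1.61 with SE 0.382, edgeR adjusted p = 0.00888).

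Cdh11 (ENSMUSG00000031673), a cadherin of mesenchyme and of developing synapses, went the other way, with 175, 199 and 185 CPM in NA, 171, 209.7 and 246 in PFC, 33.5, 60.3 and 59.9 in RSC and 51.5, 95.4 and 106 in VHN. All 6 NA and PFC libraries lay above the highest RSC or VHN library, and VHN lay between the other groups in 2 of 3 replicates. Cdh11 averaged 198 ± 28.02 CPM in NA and PFC and 67.8 ± 27.5 in RSC and VHN (SD, n = 6 each). The gap was 2.92-fold (log2 fold change 1.59 with SE 0.214, edgeR adjusted p = 0.000108). Cdh12 (ENSMUSG00000040452), a cadherin expressed largely in brain, was at 63.2, 24.7 and 70.04 CPM in NA, 76.1, 67.01 and 36.01 in PFC, 8.83, 16.05 and 10.9 in RSC and 14.1, 30.1 and 15.4 in VHN. All RSC libraries were low, and the overlap came from NA replicate 2, which lay below VHN replicate 2. The Cdh12 means were 3.54-fold apart (log2 fold change 1.87 with SE 0.363, edgeR adjusted p = 0.00222).

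Cdh8, Cdh9, Cdh18 and Cdh24 were not called in any comparison, and their levels differed widely. Cdh8 had the highest mean of the type II cadherins, 51.2 FPKM, and Cdh9, which acts in the wiring of dentate axons to CA3, the lowest, 1.36 FPKM. Cdh9 averaged 12.5 ± 6.99 CPM in PFC and 1.52 to 2.03 CPM in the other populations. Cdh8 in NA, at 157, 377 and 211 CPM, spread more between replicates than in any other population. Cdh18 averaged 25.2 ± 7.92 CPM in PFC and 7.81 ± 3.19 in NA, and Cdh24 ranged from 2.299 to 25.96 CPM and overlapped in all populations (SD, n = 3 each).

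Cdh6, Cdh9, Cdh10 and Cdh12 follow one another on chromosome 15 with no coding gene between them, and Acot10 alone separates Cdh12 from Cdh18 (RefSeq, GRCm38.p6, used here for gene order). Of these neighbours Cdh6 and Cdh10 were lower in NA and PFC, Cdh12 was higher, and Cdh9 and Cdh18 were not called. On chromosome 8 Cdh8 and Cdh11 are adjacent, and of the pair only Cdh11 was called. The upstream sequences of Cdh6 and Cdh10 are shown because these neighbours changed in the same direction. They are the 250 bases before the RefSeq gene start in GRCm38.p6, on the gene's strand, at chr15:13173676-13173925 on the minus strand and chr15:18820079-18820328 on the plus strand, and no annotated exon of the reference overlaps them. Capitals mark matches to the motifs searched on both strands: GGGCGG (the GC box), TATAAA (the TATA box), CAGATG and its relative CAGCTG (E-boxes), and CCGGAA (the core of ETS factor sites).
Cdh6 upstream: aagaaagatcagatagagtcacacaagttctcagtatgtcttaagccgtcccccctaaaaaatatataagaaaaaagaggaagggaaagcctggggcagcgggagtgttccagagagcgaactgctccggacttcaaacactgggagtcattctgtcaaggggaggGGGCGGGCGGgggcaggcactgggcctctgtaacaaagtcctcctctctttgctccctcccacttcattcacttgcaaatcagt
Cdh10 upstream: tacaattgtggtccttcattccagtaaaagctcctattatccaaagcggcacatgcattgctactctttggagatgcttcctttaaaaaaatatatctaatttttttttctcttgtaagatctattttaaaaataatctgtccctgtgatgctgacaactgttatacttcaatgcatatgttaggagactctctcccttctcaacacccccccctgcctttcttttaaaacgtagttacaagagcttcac
The Cdh6 window is 51.2% G and C and holds 2 overlapping copies of GGGCGG, a motif present in 32.7% of 32851 RefSeq windows of that length. The Cdh10 window is 36.8% G and C, below the median of 52.4% over all windows, and holds none of the 5 motifs. The other motifs are present in 12.4% (TATAAA), 14.4% (CAGATG), 13.0% (CAGCTG) and 12.03% (CCGGAA) of all windows. Such a match is a run of letters and was not tested for binding.

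T-cadherin, Cdh13 (ENSMUSG00000031841), has no intracellular tail and is held in the membrane by a lipid anchor. It was higher in NA and PFC, with 126, 125 and 100.3 CPM in NA, 94.8, 97.6 and 65.7 in PFC, 43.1, 11.4 and 6.47 in RSC and 4.25, 32.2 and 43.6 in VHN. Its sides did not overlap, NA was highest, and RSC and VHN each held 1 library far from the others, RSC replicate 1 at 43.1 CPM and VHN replicate 1 at 4.25. The means differed 4.32-fold (log2 fold change 2.11 with SE 0.486, edgeR adjusted p = 0.00743). Without the 3 libraries that hold interneuron transcripts the adjusted p was 0.0505 at a log2 fold change of 1.85.

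Among the protocadherins, which signal through their own intracellular motifs, Pcdh1, Pcdh7, Pcdh8 and Pcdh20 were higher in NA and PFC and none was lower. Pcdh20 (ENSMUSG00000050505) had the widest gap among them, and its levels were 106, 187 and 125 CPM in NA, 130.3, 147 and 134 in PFC, 0.519, 0.276 and 0.531 in RSC and 0.368, 23.6 and 33.7 in VHN. All 3 RSC libraries and VHN replicate 1 were below 1 CPM, VHN replicates 2 and 3 lay between, and every NA and PFC library lay above 100 CPM. The mean was 138 ± 27.3 CPM in NA and PFC and 9.83 ± 14.9 in RSC and VHN (SD, n = 6 each). Between NA and PFC the means, at 139 and 137 CPM, differed by less than the spread between replicates. The log2 fold change of RSC over VHN was −5.41, with an edgeR adjusted p of 0.219.

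Pcdh8 (ENSMUSG00000036422), also called arcadlin, is induced by synaptic activity and takes N-cadherin off the synaptic membrane. It was a low-level gene, with 3.48, 7.502 and 3.86 CPM in NA, 34.3, 26.5 and 12.6 in PFC, 0, 0.772 and 0.338 in RSC and 0.158, 5.12 and 1.11 in VHN. PFC was highest in all 3 replicates, RSC lay below 1 CPM, and VHN replicate 2 overlapped NA. The means differed 11.8-fold (log2 fold change 3.61 with SE 0.889, edgeR adjusted p = 0.0113), and of the pairwise comparisons PFC against RSC passed (adjusted p = 0.0114). Pcdh8 and Pcdh20 lie in 1 stretch of chromosome 14 with Pcdh17 and Pcdh9, with Olfm4, Diaph3 and Tdrd3 as the coding genes between them, and neither Pcdh17 nor Pcdh9 was called. The upstream windows of Pcdh8 and Pcdh20 are shown because both genes were higher in NA and PFC. They lie at chr14:79771313-79771562 and chr14:88471397-88471646, both on the minus strand in GRCm38.p6, from the same RefSeq source and with capitals as above.
Pcdh8 upstream: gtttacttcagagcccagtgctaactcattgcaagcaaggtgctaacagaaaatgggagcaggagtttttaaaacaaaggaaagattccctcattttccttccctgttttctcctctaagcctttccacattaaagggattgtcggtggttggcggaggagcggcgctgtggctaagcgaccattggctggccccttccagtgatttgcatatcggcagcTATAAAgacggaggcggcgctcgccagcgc
Pcdh20 upstream: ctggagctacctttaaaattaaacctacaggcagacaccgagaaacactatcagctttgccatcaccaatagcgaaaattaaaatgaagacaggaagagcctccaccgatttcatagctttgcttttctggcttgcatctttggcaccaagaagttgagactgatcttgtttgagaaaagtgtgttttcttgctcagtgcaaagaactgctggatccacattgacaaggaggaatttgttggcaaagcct
The Pcdh8 window holds 1 TATAAA near its gene start, and the Pcdh20 window, at 42.4% G and C, holds none of the 5 motifs. Unlike those of the other 3 genes shown, the bases just after the Pcdh20 window match no GENCODE transcript of the gene, so this start rests on RefSeq alone. Of the 34 genes, 27 had a window in the RefSeq table.

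Pcdh1 (ENSMUSG00000051375), a cell-contact protein of epithelium and brain, was the most abundant protocadherin at 105 FPKM. It was at 402, 785 and 475 CPM in NA, 531, 682 and 546 in PFC, 248, 225 and 312 in RSC and 257, 332 and 286 in VHN. No library of NA or PFC fell below any of RSC or VHN, and NA replicate 2 was the highest. It was 2.06-fold higher on average (log2 fold change 1.05 with SE 0.162, edgeR adjusted p = 0.000382), and all 4 comparisons across the sides passed, from an adjusted p of 0.004 for PFC against RSC to 0.0386 for NA against VHN. Pcdh7 (ENSMUSG00000029108), or NF-protocadherin, which acts in axon growth, was at 161, 191 and 177 CPM in NA, 170.2, 231 and 124 in PFC, 37.1, 59.3 and 50.4 in RSC and 35.4, 64.01 and 109.9 in VHN. Its sides did not overlap, although VHN replicate 3 came near PFC replicate 3. Pcdh7 means were 2.96-fold apart (log2 fold change 1.59 with SE 0.253, edgeR adjusted p = 0.000459).

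Pcdh9, Pcdh10, Pcdh15, Pcdh17 and Pcdh19 were tested and not called. Pcdh9, at 85.4 FPKM, was second to Pcdh1 among protocadherins, and it averaged 437 ± 45.6 CPM in RSC and 237 ± 92.01 in NA (SD, n = 3 each). Pcdh17, which gathers presynaptic vesicles in corticobasal circuits, averaged 406 ± 157 CPM in NA and PFC and 245 ± 89.8 in RSC and VHN (SD, n = 6 each; edgeR adjusted p = 0.0572), and Pcdh19, the X-linked epilepsy gene, 206 ± 37.1 and 156 ± 33.1 CPM (adjusted p = 0.0892). Pcdh10 had an adjusted p of 0.155. Without NA replicate 2, a library that stands apart from its group, 21 genes were called, the earlier 18 and these: Pcdh10, Pcdh17 and Pcdh19, against 14.7% of all genes in that fit. Pcdh15, a tip-link protein of inner ear hair cells, stayed low at 0.605 FPKM. Pcdh18 had fragments in NA replicates 1 and 2 alone, at 0.0621 and 0.107 CPM.

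The Fat proteins are giant cadherins of planar polarity, and Fat4 is the receptor for the ligand Dchs1. Fat1 and Fat4 passed as higher in NA and PFC, and Fat3 as lower. Fat1 (ENSMUSG00000070047) was at 49.6, 46.3 and 26.5 CPM in NA, 28.6, 43.03 and 15.8 in PFC, 0.115, 4.301 and 1.64 in RSC and 4.04, 1.31 and 5.89 in VHN. All NA and PFC libraries exceeded all others, and RSC and VHN stayed below 6 CPM. The means were 12.1-fold apart (log2 fold change 3.64 with SE 0.651, edgeR adjusted p = 0.00114). Fat4 (ENSMUSG00000046743) was at 3.35, 2.57 and 6.83 CPM in NA, 17.6, 81.8 and 54.01 in PFC, 0, 0.1103 and 1.498 in RSC and 3.89, 0.119 and 0.292 in VHN. By level it was highest in PFC, the 3 NA libraries lay below all of PFC, and VHN replicate 1 overlapped NA. Fat4 was higher in NA and PFC (log2 fold change 4.05 with SE 0.9397, edgeR adjusted p = 0.00776), passed in PFC against RSC (adjusted p = 0.00985) and PFC against VHN (adjusted p = 0.0408), and did not pass in PFC against NA (log2 fold change −3.58 for NA over PFC, adjusted p = 0.248). Over all libraries Fat4 averaged 14.3 CPM and 0.916 FPKM, a measure that divides by gene length.

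Fat3 (ENSMUSG00000074505), which shapes dendrites in the retina, was the most abundant of these at 22.8 FPKM. Its levels were 367, 264 and 362 CPM in NA, 219.5, 239.5 and 405 in PFC, 586, 622 and 621 in RSC and 606, 432 and 385 in VHN. RSC was high and even, VHN replicate 1 matched it, and VHN replicate 3 fell below PFC replicate 3. The mean was 1.75-fold higher in RSC and VHN (log2 fold change −0.80 with SE 0.166, edgeR adjusted p = 0.00349). Dchs1 was at 0.338 FPKM, from 0.115 to 4.64 CPM, and was not called (adjusted p = 0.259).

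**Figure D2:**
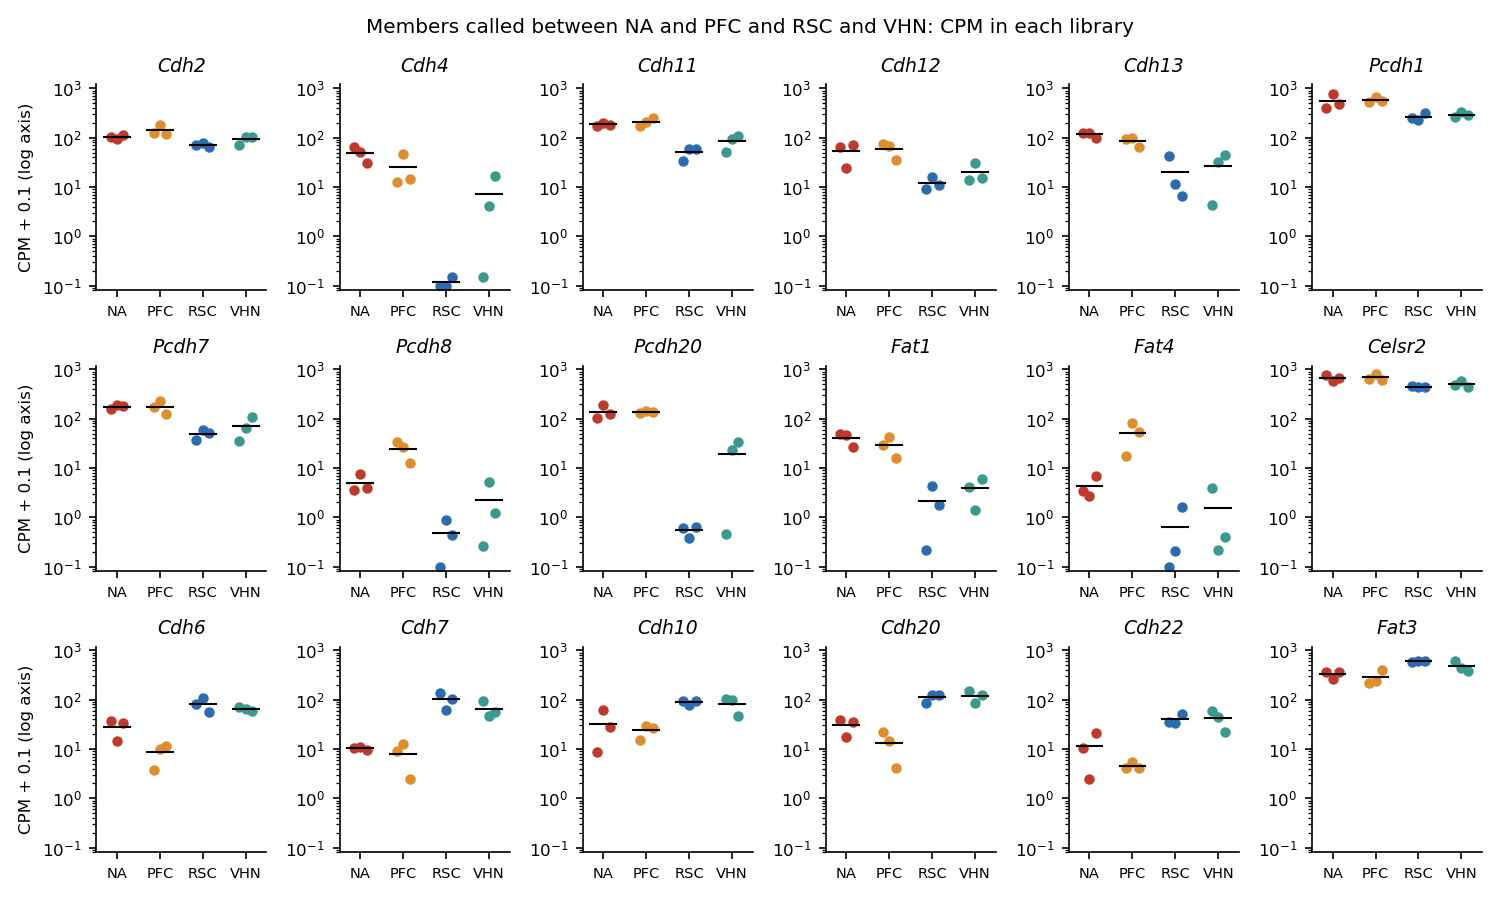
CPM plus 0.1 on a log axis for the 18 genes called between NA and PFC and RSC and VHN, 1 panel per gene, with 1 point per library and a line at the mean of each population (n = 3). The upper 12 panels hold the genes that were higher on the NA and PFC side and the last 6 those lower; in Cdh4 and Pcdh20 the lowest VHN point, replicate 1, lies at the RSC level.

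Celsr proteins are adhesion G protein-coupled receptors with cadherin repeats that guide axon tracts and dendrites. Celsr2 (ENSMUSG00000068740) was at 772, 581 and 663 CPM in NA, 649.7, 802 and 614 in PFC, 458, 443 and 434 in RSC and 482, 591 and 431 in VHN. VHN replicate 2 lay just above NA replicate 2, and the other libraries of RSC and VHN lay below all of NA and PFC. The difference was small, 1.44-fold (log2 fold change 0.53 with SE 0.1195, edgeR adjusted p = 0.00675), and without the 3 libraries with interneuron transcripts it was not called (log2 fold change 0.47, adjusted p = 0.182). In FPKM the gap was wider: 146, 128 and 86.6 in NA, 98.03, 117 and 79.7 in PFC, 42.00, 40.6 and 46.2 in RSC and 50.5, 55.02 and 39.9 in VHN. On that scale the sides did not overlap and the means were 2.39-fold apart.

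FPKM divided by CPM gives each library's scaling for length, which the authors' program sets from the transcripts it assigns. For Celsr2 this ratio was 0.161 ± 0.0359 in NA and PFC and 0.0967 ± 0.00689 in RSC and VHN (SD, n = 6 each), with no overlap. Of 15 of the 34 genes with at least 10 CPM in every library, Celsr2 was the only one with such a gap. Among all genes at that level, 1.28% had every NA and PFC library above and 0.603% below. Whether the transcripts used differ between the sides was not tested, as transcript values were not analysed here.

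**Figure D3:**
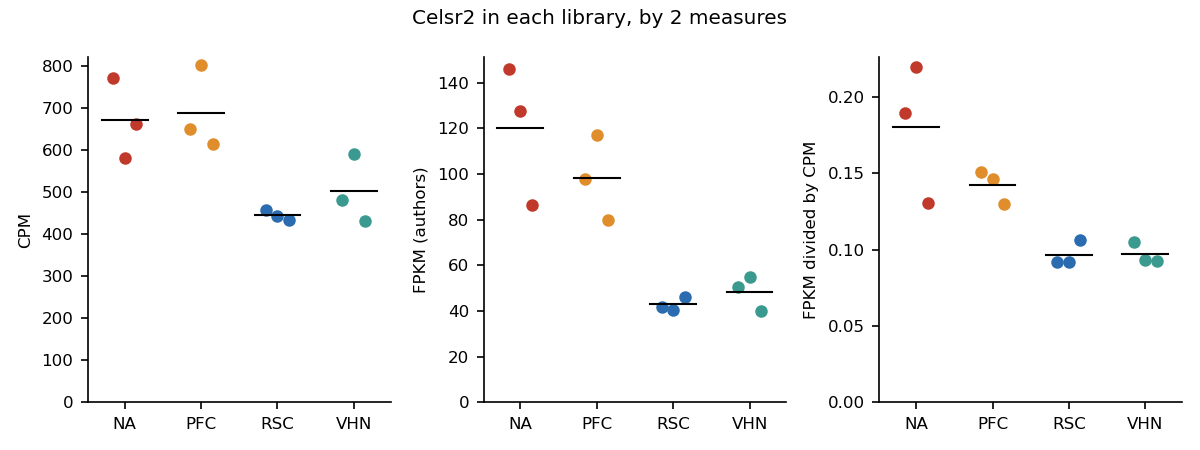
Celsr2 in each bulk library by population, as CPM (left), the authors' FPKM (middle) and FPKM divided by CPM (right), with lines at population means (n = 3) and axes from 0. The ratio lies between 0.130 and 0.220 in NA and PFC and between 0.0917 and 0.106 in RSC and VHN.

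Celsr3 (ENSMUSG00000023473), needed for the large axon tracts of the forebrain, was at 96.5, 81.2 and 66.2 CPM in NA, 155, 90.1 and 97.1 in PFC, 66.8, 54.8 and 48.5 in RSC and 64.3, 101 and 104 in VHN. RSC was lowest, PFC replicate 1 was highest, and VHN replicates 2 and 3 lay within the NA and PFC range. Celsr3 was called in PFC against RSC (log2 fold change 1.01 with SE 0.3095, edgeR adjusted p = 0.0488) and in no other comparison, and 17 alternatives took that call away. Celsr1 ranged from 0 to 1.71 CPM. The calsyntenins, which link cargo to kinesin in axons (Clstn1) or organise synapses (Clstn3), were among the most abundant of the 34 genes and none was called. Clstn1 had the highest mean of all, 205 FPKM, with 538, 842 and 488 CPM in NA, 495, 519 and 696 in PFC, 730.1, 602 and 651 in RSC and 670.3, 668 and 594 in VHN. Those values overlapped throughout (log2 fold change −0.13 with SE 0.141, edgeR adjusted p = 0.597). Clstn2 and Clstn3 averaged 31.6 and 51.7 FPKM, with adjusted p of 0.405 and 0.855.

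In the test among all 4 populations, 16 of 32 genes differed, against 8.93% of all genes tested. The highest population mean was in NA for 12 of the 32, PFC for 12, RSC for 6 and VHN for 2, while over all genes tested these shares were 26.7%, 28.8%, 25.0% and 19.5%. The sides did not overlap for 6 genes higher and 4 lower in NA and PFC, against 3.57% and 3.95% of all genes tested. Pairwise tests share libraries and the fit, so each is given with its own background. PFC against RSC had 18 genes called (12 higher in PFC, 6 lower), against 9.76% of all genes, and NA against RSC had 12 (9 higher, 3 lower), against 5.83%. PFC against VHN had 8 (4 and 4), against 5.09%, namely Cdh6, Cdh7, Cdh11, Cdh20, Cdh22, Pcdh1, Pcdh7 and Fat4. NA against VHN had 3, against 2.75%: Cdh7 and Cdh20, lower in NA, and Pcdh1, higher. DESeq2 called 11 genes in NA against VHN, where it called 8.69% of all genes, and 14 in PFC against VHN, where it called 11.1% of all genes.

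Within the sides no member of the 34 was called by edgeR. NA against PFC had 0 of 32, against 0.438% of all genes, with 7 at an unadjusted p under 0.05, and DESeq2 called 3 (and 4.54% of all genes). The lowest adjusted p belonged to Cdh8, 248 ± 115 CPM in NA and 114 ± 31.5 in PFC (SD, n = 3 each; adjusted p = 0.104), and to Cdh6, 28.3 ± 12.3 and 8.44 ± 4.17 CPM (adjusted p = 0.13). RSC against VHN had 0 of 32, against 0% of all genes, with 5 at an unadjusted p under 0.05, and DESeq2 called 2 (and 0.521% of all genes). Cdh4 and Pcdh20, both lower in RSC, had the lowest adjusted p there, 0.219 each. A missed threshold with 3 libraries a group does not show that the populations are alike.

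Of the 3 VHN libraries, replicate 1 lay farthest from the NA and PFC side for 15 of the 18 called genes, 9 of the 12 higher ones and all 6 lower ones. Over the 1982 genes called in all, it was the farthest VHN library for 43.3%. PFC replicate 2 was the farthest PFC library for 9 of the 18 genes, and for 34.1% of all genes called. Those were 9 of the 12 higher genes and 0 of the 6 lower ones, and the share over all genes was not split by direction. NA replicate 2 and RSC replicate 1 were each the farthest of their population for 9 of the 18 genes, and for 48.2% and 38.5% of all genes called. These are counts within 1 set of libraries, and which of them represents its population was not tested. Without the 3 libraries with interneuron transcripts, 15 of the 18 genes were called, all but Cdh2, Cdh13 and Celsr2, against 4.66% of 16007 genes tested. Without NA replicate 2 and PFC replicate 3, which stand apart from their groups, 21 were called, the 18 with Cdh8, Clstn1 and Pcdh17, against 15.9%.

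Cadherins act through intracellular and signalling partners. Of 30 such genes listed by function, 29 were tested, and NA and PFC were higher for 5 and lower for 2 (7.58% and 6.66% of all genes tested), the former including the GTPase Rac1 (log2 fold change 0.89 with SE 0.116, edgeR adjusted p = 8.14e-05) and the synaptic scaffold Magi2 (log2 fold change 1.0 with SE 0.1897, edgeR adjusted p = 0.00183). The receptor phosphatase Ptprm (log2 fold change −4.31 with SE 0.877, edgeR adjusted p = 0.00308) and Nyap2 (log2 fold change −1.0 with SE 0.217, edgeR adjusted p = 0.00486) were the lower ones. The core catenins did not pass: beta-catenin Ctnnb1 had an adjusted p of 0.871, alpha-catenin Ctnna2 of 0.155 and p120-catenin Ctnnd1 of 0.828, while the neuronal delta-catenin Ctnnd2 did (log2 fold change 0.40 with SE 0.128, edgeR adjusted p = 0.0439). The median log2 difference of the partners was 0.11, and its median size 0.41 against 0.59 for all genes. Of 22 further superfamily genes listed, 7 were tested and 3 were called, against 14.2% of all genes tested: the photoreceptor cadherin Cdhr1 and Fat2 higher in NA and PFC, and the receptor kinase Ret lower (edgeR adjusted p = 0.0117, 0.0214 and 0.0195). Cdhr1 and Fat2 had no fragment in any RSC or VHN library, so they passed the filter through the side where they were called higher.

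In the single cells, 348 of 384 wells passed the minimum of 1000 detected genes, and their median depth was 112401 counts. The labels list 8 single-cell samples that the well names do not map to, so the wells were treated as 1 pooled sample with no test, and the intervals below are exact and cover counting error only. The cell type was checked again: the glutamate transporter Slc17a7 was in 93.7% of wells, Gad1 in 3 wells and Gad2 in 2. Mbp, a myelin gene of oligodendrocytes, had counts in 56.6% of wells and was at 35.1 to 83.6 CPM in the bulk libraries. Counts of Gfap, an astrocyte gene, were found in 0 wells. All 34 genes had a row, and 10 were found in at least 50% of wells. Clstn1 was found in 96.3% of wells, Celsr2 in 89.7%, Clstn3 in 88.2%, Pcdh17 in 80.7% and Cdh8 in 75.9%. Celsr1 had a count in 0 of 348 wells, and a floor of 3 wells allows a share of wells with a count of up to 0.862%, which is no limit on cells that express it. Pcdh18 had a count in 1 well.

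After thinning to 20000 counts, which 340 wells allowed, a median of 9 of the 34 genes had a count per well, from 0 to 16. A gene without a count may still be expressed. Several genes called in bulk had a count in a minority of wells: Cdh4 in 16.95% of wells (95% interval 13.2 to 21.3), Pcdh20 in 25.3% (20.8 to 30.2), Cdh7 in 16.4% (12.6 to 20.7) and Cdh20 in 13.5% (10.1 to 17.6). In thinned wells these shares were 10%, 17.4%, 10.3% and 7.65%. All 4 lie below the share of wells with Mbp and above those with Gad1 (0.862%), Gad2 (0.575%) and Gfap (0%). No single background level can be read from these genes of other cell types, and what a low share says about expression was not tested. The strongest well reached 747 CPM for Cdh4, 195 for Pcdh20, 326 for Cdh7 and 181 for Cdh20. Among wells with a count, the median was 32.5 CPM for Cdh4, against a pooled level of 9.93 over all wells. The top 10% of wells held 92.3% of Cdh4 counts and 21.99% of Clstn1 counts.

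Cells were then split by the neuropeptide gene Nts, which was at 199 to 406 CPM in the RSC and VHN libraries and 10.9 to 31.6 in NA and PFC. Wells with at least 100 CPM of Nts numbered 204, and 103 wells had no Nts count. The other 41 were left out, and 65 wells lay within 50 to 200 CPM, so the groups are ranges and not cell types. Median depth was 116846.5 counts with Nts and 94629 without. Of 24 genes at 5 CPM or more, 6 were at least 1.5-fold higher in Nts wells and higher in 4 of 4 plates (6.57% of all genes at that level), and 5 were lower by the same rule (7.68%).

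The 6 higher genes included 3 that were lower in NA and PFC in bulk. Cdh10 was at 15.6 CPM (14.04 to 17.2) in Nts wells and 4.48 (3.25 to 6.04) without. Cdh22 was at 60.4 CPM (57.4 to 63.6) and 18.8 (16.1 to 21.7), and Fat3 at 35.6 CPM (33.3 to 37.99) and 13.6 (11.3 to 16.1). Cdh8, not called in bulk, was at 149 CPM (145 to 154) and 66.5 (61.5 to 71.9). The other 2, Pcdh1 and Celsr2, were higher in NA and PFC in bulk, so their single-cell direction was the opposite one: Pcdh1 was at 9.65 CPM (8.46 to 10.9) with Nts and 5.11 (3.78 to 6.76) without, and Celsr2 at 217 CPM (212 to 223) and 124 (117 to 131). After thinning, Celsr2 was found in 88.7% of Nts wells and 68.4% of wells without. The shares also fell for Clstn1 (98.5% and 85.3%) and Clstn3 (79.9% and 54.7%), which were not called in bulk. Other genes went the opposite way, such as Pcdh9 (58.8% and 74.7%). Whether the 2 groups of wells differ in quality was not tested.

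The 5 lower genes were Cdh11, Cdh12, Pcdh7, Pcdh8 and Pcdh9, and all but Pcdh9 were higher in NA and PFC in bulk. Pcdh8 had the widest gap, 16.7 CPM (15.2 to 18.4) in Nts wells and 49.95 (45.6 to 54.6) without. Cdh11 was at 27.7 CPM (25.7 to 29.8) and 58.2 (53.5 to 63.2), Cdh12 at 8.96 CPM (7.82 to 10.2) and 21.1 (18.3 to 24.2), and Pcdh7 at 67.7 CPM (64.5 to 71.03) and 124 (117 to 131). Pcdh9 was at 175 CPM (170.1 to 181) and 313 (301 to 324). Pcdh20, the gene with one of the widest gaps in bulk, was at 13.9 CPM (12.5 to 15.5) with Nts and 22.1 (19.2 to 25.3) without, in that order on 3 of 4 plates. Cdh20 was at nearly the same level in both groups of wells, with 8.32 CPM (7.22 to 9.53) and 8.13 (6.43 to 10.2).

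Counted by direction alone, 5 of 5 genes lower in NA and PFC were higher in Nts wells, and 8 of 10 higher ones were lower. Over all genes called in bulk these shares were 72.0% and 77.8%, so the counts are near what any called gene gives. Fn1, another gene of the RSC and VHN side, was not analysed in the single cells.

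**Figure D4:**
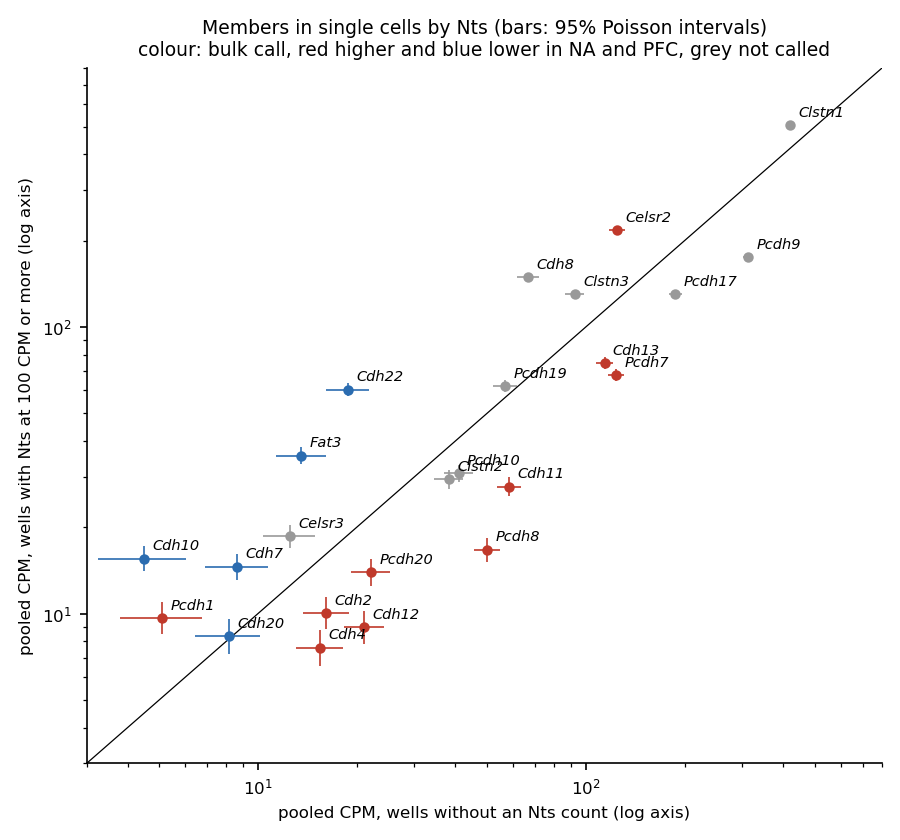
Pooled CPM of the 24 genes at 5 CPM or more in wells with at least 100 CPM of Nts (y axis, 204 wells) against wells without an Nts count (x axis, 103 wells), both on log axes, with 95% Poisson bars and a line at equality. Colour gives the bulk call (red higher in NA and PFC, blue lower, grey not called); Celsr2 and Pcdh1 are the red points above the line.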

How the data were processed

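Gene expression was measured in 12 bulk libraries, 3 of each of 4 populations of subiculum pyramidal cells, and in single cells in wells. Cuffdiff wrote the bulk table, per the file headers. Its raw fragments are expected counts per gene and library, deposited by the authors without normalization, and all were rounded, since 8.51% of those above 0 were fractional. The authors also deposited FPKM values, scaled per library and for length by their program. The single-cell values are counts of each gene in each well, deposited by the authors as whole numbers without scaling. The genome build was mm9, per the submitters' processing notes. The aligner, the software versions, the annotation and the use of strand are not given in the sources used here, so values of genes that overlap others are uncertain. Left out were 92 spike-in rows (all 0) and 2 columns of scaled fragments, and 178 entries with the status FAIL were kept. Symbols were matched by Ensembl identifier for 32894 of 37607 genes (87.5%). The table numbers replicates from 0 and the labels from 1, and libraries were named on the assumption that both follow 1 order, which no test uses.

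The 34 genes and all lists were chosen with earlier results of these data known. One edgeR 4.0.16 quasi-likelihood fit (R 4.3.3) used all 12 libraries, TMM scaling and the filterByExpr filter (smallest count 10), with Benjamini-Hochberg adjustment over 13916 genes and a threshold of 0.05. SE is the log2 fold change divided by the root of F. The log2 fold change averages log levels of populations, so it differs from the ratio of mean CPM. Adjusted p-values are from edgeR unless another tool is named. CPM were computed here. Alternatives were DESeq2 1.42.0 and its size factors, library totals, no filter, limma 3.58.1 on log2(FPKM + 1) and log2(FPKM + 0.1), a replicate block, and leaving out libraries. Values in every library are given for genes called in any test, and the uncalled gene with the highest FPKM is named. Of each partner list, up to 4 called genes with the lowest adjusted p in the comparison of the sides were to be named, and a few catenins were added after their values were seen. Wells with at least 1000 detected genes were kept, and pooled CPM have exact Poisson intervals and shares exact Clopper-Pearson intervals (95%). Doublets were not called. A split of wells by Fn1 was planned, and Nts was used in its place after the data were seen, with the same thresholds. Whether molecular identifiers were used is not given in the sources used here. Libraries of 1 group differed by far more than counting noise, so none was counted as a duplicate.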

Additional observations from a re-analysis of the deposited data

How the results depend on the processing

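No gene called in a bulk comparison changed direction under any alternative run. Of the 18 genes called between NA and PFC and RSC and VHN, 15 were called under all 21 alternatives, the exceptions being Cdh2, Cdh13 and Celsr2, and 17 of 18 held whichever single library was left out. With limma on FPKM the log2 fold changes of low genes were smaller, as low as 1.06 for Fat4 and 2.41 for Cdh4 (main values 4.05 and 6.37). Without the 3 libraries with interneuron transcripts, the test among 4 populations called 10 members (16 in full), NA against RSC 5 (12), PFC against RSC 8 (18) and NA against VHN 5 (3), with fewer libraries in each fit. Without NA replicate 2 and PFC replicate 3, NA against PFC called 1 (0), NA against VHN 5 and PFC against VHN 13 (8). With no filter on low counts the calls were 3 in NA against PFC and 11 in NA against VHN. In PFC against VHN they were 14, and in RSC against VHN 2. DESeq2 gave the same 4 counts, against 4.54%, 8.69%, 11.1% and 0.521% of all genes. For the other settings the share over all genes is not given here, so shifts of the members cannot be told from shifts of the whole test. The cause of these shifts was not tested.

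Leaving out 1 library at a time gave 6 to 12 calls in NA against RSC (7 without RSC replicate 2, 6 without RSC replicate 3), 1 to 4 in NA against VHN (1 without VHN replicate 1 or 2), 4 to 11 in PFC against VHN (4 without PFC replicate 2, 5 without VHN replicate 1 or 2) and 0 to 2 in RSC against VHN (2 without VHN replicate 1). The labels do not say whether equal replicate numbers share an animal or day. Correlations of deviations from population means ran from −0.045 to 0.030 over 18 pairs of libraries with equal numbers. Over 36 pairs with unequal numbers they ran from −0.034 to 0.045. With 3 libraries a population, these values cannot show whether libraries were paired. With the replicate number as a block, 17 members were called between the sides, all but Cdh2, and 5 in NA against VHN, and the block moved no other count by over 1.5 times. Without plate Q6, 8 genes were higher in Nts wells (6 in full) and 8 were lower (5 in full). The rule then covers fewer plates, which makes its plate part easier to pass. For the calls above and for plate Q6, shares over all genes are not given here, so a shift of the whole test cannot be told apart. Without plate Q5, without plate Q6 or at 10 CPM of Nts, 4 of the 5 genes lower in NA and PFC were higher in Nts wells (5 of 5 in full). The planned split by Fn1 was not run. Counting error is widest for the lowest genes, such as Cdh4 in RSC, with 1 fragment over 3 libraries.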
